A study of Mus musculus with 35 samples.

Results

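The genes described here are 9 genes of the tight junctions of the vessel wall, chosen by name: the claudins *Cldn5* and *Cldn12*, the MARVEL proteins *Ocln* and *Marveld2*, the immunoglobulin-type adhesion molecules *Esam*, *Jam2* and *F11r*, and the plaque proteins *Tjp1* and *Cgn*. They are 9 of the 53465 genes listed in the bulk RNA-seq table, and all 9 were found there by their Ensembl identifiers. Mouse embryonic brains at day E14.5, whose labels name no mutation and which are called wild-type here, were dissociated, and neural, mural, endothelial and microglial cells were separated by antibody sorting. Bulk RNA-seq covered these 4 populations from 3 brains, which gave 12 libraries. These are labelled N, Mu, Ec or Mi with the number of the brain, as Ec-340, Ec-343 and Ec-346, and values are given in that order of brains throughout. Single-cell RNA-seq by mCEL-Seq2, a plate method with molecular identifiers, covered wild-type wells on 3 plates, each sorted through a gate given per well. Another 3 plates held *Mof* knockout wells of E14.5 brain with no gate given, and of these plate 6 was used as a further set of endothelial cells. The single-cell gates were negative for all markers (neural), PDGFRB high and PECAM1 low without CD45 or CD41 (mural), PECAM1 and CD102 high with the other markers low (endothelial), and CD41 positive with medium CD45 (microglia), as the well sheet gives them. The study's own description names CD11b with CD45 for microglia, so the sources differ on that gate. The labels name the knockout by *Mof* alone, and the driver of the deletion, the allele and the number of knockout brains are not given in the sources used here. The bulk sort used the same kinds of marker, with CD11b for microglia. PECAM1 and CD102 defined the endothelial gate, so the transcripts of *Pecam1* and *Icam2* are no finding here.

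Tight junctions seal the space between neighbouring cells of an epithelium or endothelium. Claudins form the paracellular seal itself, occludin and tricellulin (encoded by *Marveld2*) belong to the MARVEL family and sit in bicellular and tricellular contacts, junctional adhesion molecules hold the membranes together, and plaque proteins such as ZO-1 (encoded by *Tjp1*) and cingulin (*Cgn*) link them to the cytoskeleton. In brain capillaries these contacts are a main part of the blood-brain barrier, in which *Cldn5* is the principal claudin.

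Among the 9 genes, *Ocln* and *Marveld2* are neighbours. In GRCm38, *Ocln* covers chr13:100496507-100552718 and *Marveld2* chr13:100595957-100616971, both on the minus strand, with 43238 bases and no protein-coding gene between them. *Cldn5* lies at chr16:18776847-18778262 on the plus strand and is annotated with 1 exon, whereas *Tjp1* at chr7:65296165-65527781 has 31 merged exons. No member shared exon bases with another annotated gene. RefSeq promoters (GRCm38.p6, windows of 300 bases that end shortly after the start) were matched for 7 of the 9 genes. *Esam* and *Jam2* had no entry in that table. The promoters of 4 genes with different patterns are shown 5′ to 3′ along the gene, with the ETS core GGAA, or TTCC on the other strand, in capitals. *Cldn5* and *Ocln* were highest in endothelial libraries, *F11r* in endothelial and microglial libraries, and *Cgn* in neural libraries. The windows are chr16:18776597-18776896 (plus strand) for *Cldn5*, chr13:100552669-100552968 (minus) for the outer of the 2 *Ocln* starts, chr1:171437311-171437610 (plus) for *F11r* and chr3:94786433-94786732 (minus) for *Cgn*.
Cldn5: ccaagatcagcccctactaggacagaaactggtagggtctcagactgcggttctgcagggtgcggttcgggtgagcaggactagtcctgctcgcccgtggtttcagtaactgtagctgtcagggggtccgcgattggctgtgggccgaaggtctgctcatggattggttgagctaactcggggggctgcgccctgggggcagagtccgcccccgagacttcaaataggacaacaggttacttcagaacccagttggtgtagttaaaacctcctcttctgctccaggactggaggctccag
Ocln: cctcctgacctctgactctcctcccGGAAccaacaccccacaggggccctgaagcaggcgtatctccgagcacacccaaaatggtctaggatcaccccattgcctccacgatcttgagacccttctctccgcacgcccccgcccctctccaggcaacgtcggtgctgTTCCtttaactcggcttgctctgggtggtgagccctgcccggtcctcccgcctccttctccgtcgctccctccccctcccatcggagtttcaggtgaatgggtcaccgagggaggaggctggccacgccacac
F11r: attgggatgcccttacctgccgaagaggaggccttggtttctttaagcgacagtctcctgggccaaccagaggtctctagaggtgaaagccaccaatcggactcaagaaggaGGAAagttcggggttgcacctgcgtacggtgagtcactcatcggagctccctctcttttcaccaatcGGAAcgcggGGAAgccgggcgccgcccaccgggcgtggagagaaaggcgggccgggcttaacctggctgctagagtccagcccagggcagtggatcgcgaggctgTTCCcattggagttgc
Cgn: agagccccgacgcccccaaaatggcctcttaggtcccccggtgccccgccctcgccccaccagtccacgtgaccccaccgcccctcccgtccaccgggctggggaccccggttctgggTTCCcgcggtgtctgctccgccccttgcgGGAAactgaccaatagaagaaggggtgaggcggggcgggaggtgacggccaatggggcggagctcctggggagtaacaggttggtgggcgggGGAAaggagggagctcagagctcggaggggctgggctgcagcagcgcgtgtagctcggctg

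The *Cldn5* window held no GGAA on either strand, whereas 95.98% of the 32851 promoter windows of the table held at least 1. The windows shown held 2 (*Ocln*), 4 (*F11r*) and 3 (*Cgn*). The longer ETS motif CCGGAA, which contains GGAA, was found once in the *Ocln* window and in 14.9% of all windows, and in none of the other 3. The window of the inner *Ocln* start, not shown, held no CCGGAA. None of the 4 windows held ATTGT (the SOX core, either strand; 31.0% of all windows) or TATAAA (13.6%). These are matches of letters, not sites of binding. GC content was 58.3% for *Cldn5*, 64.0% for *Ocln*, 60.3% for *F11r* and 70.3% for *Cgn*, against a median of 52.7% over all windows.

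Depth ran from 17638358 to 98414914 reads on genes per bulk library, and each of the 4 marker lists, summed, was highest in its own population. Neural markers summed to 22005 to 43363 in mural and 136228 to 148564 in neural libraries, and their part in mural levels was not tested. Single markers highest elsewhere were *Fabp7* (mean 26942 in mural, 7602 in neural), *Emcn* (4980 in mural, 4905 in endothelial) and *Notch3* (2368 in neural, 2019 in mural libraries). Erythroid markers were highest in endothelial libraries (summed normalized counts 13054 to 34138), against 9042 to 11841 in neural, 1678 to 2075 in microglial and 241.6 to 598.1 in mural libraries, and their part in the endothelial differences was not tested. RNA of neural cells was extracted and made into libraries with other kits than RNA of the other populations, so kit and neural population cannot be told apart. Of 994 wild-type wells with 1 of the 4 gates, 686 had more than 1500 transcripts and were kept, only 43 of them on plate 3. The library with all 14 neural and 6 microglia wells of plate 3 is numbered differently in its label and in the well sheet, and its gates were taken by the number in the sheet. The endothelial and mural wells of that plate came from other libraries. Without plate 3, all 5 genes tested in single cells were called higher in the endothelial gate, and *F11r* stayed called between microglia and endothelial wells (0.69, adjusted p = 0.00325, edgeR), as did *Jam2* between endothelial and neural wells (1.71, 1.53e-04). Kept wells held a median of 7576 transcripts. Well barcodes name positions and not cells: the libraries draw on the same 192 barcodes, 96 in each. Gates of 1 plate were sequenced in different libraries, so gate and library cannot be fully told apart. *Kat8*, which encodes MOF, was at 14.6 to 22.8 CPM (transcripts of the gene per 1000000 transcripts) in the 4 wild-type gates and at 12.7, 10.4 and 11.2 on knockout plates 4, 5 and 6, from 18 to 36 transcripts a plate. The deleted part of the gene is not given in the sources used here, so this 3′ count does not check the knockout.

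In bulk libraries, 7 of the 9 genes were higher in endothelial cells than in the mean of the other populations (limma on log2(normalized count + 1), Benjamini-Hochberg adjusted p under 0.05 over 19765 genes tested), namely *Cldn5*, *Ocln*, *Marveld2*, *Esam*, *Jam2*, *F11r* and *Tjp1*. Over all genes tested, 19.7% were called higher by the same rule. None of the 9 was called lower, against 22.4% of all genes. The median log2 difference was 3.17 over the 9 genes and -0.12 over all genes tested. The 9 genes were chosen with earlier results of these data known, so their counts beside all genes are a description. A difference over 10-fold was reached by 4 of them (*Cldn5*, *Ocln*, *Esam* and *F11r*), against 6.28% of all genes. Against mural and microglial libraries alone, without the neural libraries and their kits, the log2 difference of *F11r* fell from 3.83 to 1.31 (adjusted p = 0.0262), and *Jam2* (3.97) passed 10-fold in its place. The other values were then 13.07 (*Cldn5*), 6.38 (*Ocln*), 5.20 (*Esam*) and 2.76 (*Tjp1*), all called, whereas *Marveld2* (2.86, adjusted p = 0.0702) was not. All 3 endothelial libraries lay above all 9 others for 5 genes, *Cldn5*, *Ocln*, *Tjp1*, *Esam* and *Jam2*, against 6.28% of all genes. For *Cldn12*, *Marveld2*, *F11r* and *Cgn*, libraries of another population overlapped or exceeded the endothelial libraries. In bulk libraries, fewer cells of a type and less RNA per cell cannot be told apart.

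Between single pairs of populations, 37 of the 54 comparisons of the 9 genes passed the test (68.5%), against 45% over all genes. Endothelial libraries were higher than mural libraries for 6 of the 9 genes, where 14.3% of all genes were higher, and mural libraries were higher for none (13.5%). Endothelial libraries were higher than microglial libraries for 6 genes (15.3%) and lower for none (17%). They were higher than neural libraries for 6 genes (27.1%) and lower for 2 (30.6%), *Cldn12* and *Cgn*. Neural libraries were higher than mural libraries for 3 genes (28.7%) and lower for 3 (25.8%), and higher than microglial libraries for 4 (30.4%) and lower for 2 (29.3%). Mural libraries were higher than microglial libraries for 3 genes (17.9%) and lower for 2 (20.1%). The share of all genes stands in each bracket, and each population enters 3 of these pairs.

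**Figure D1:**
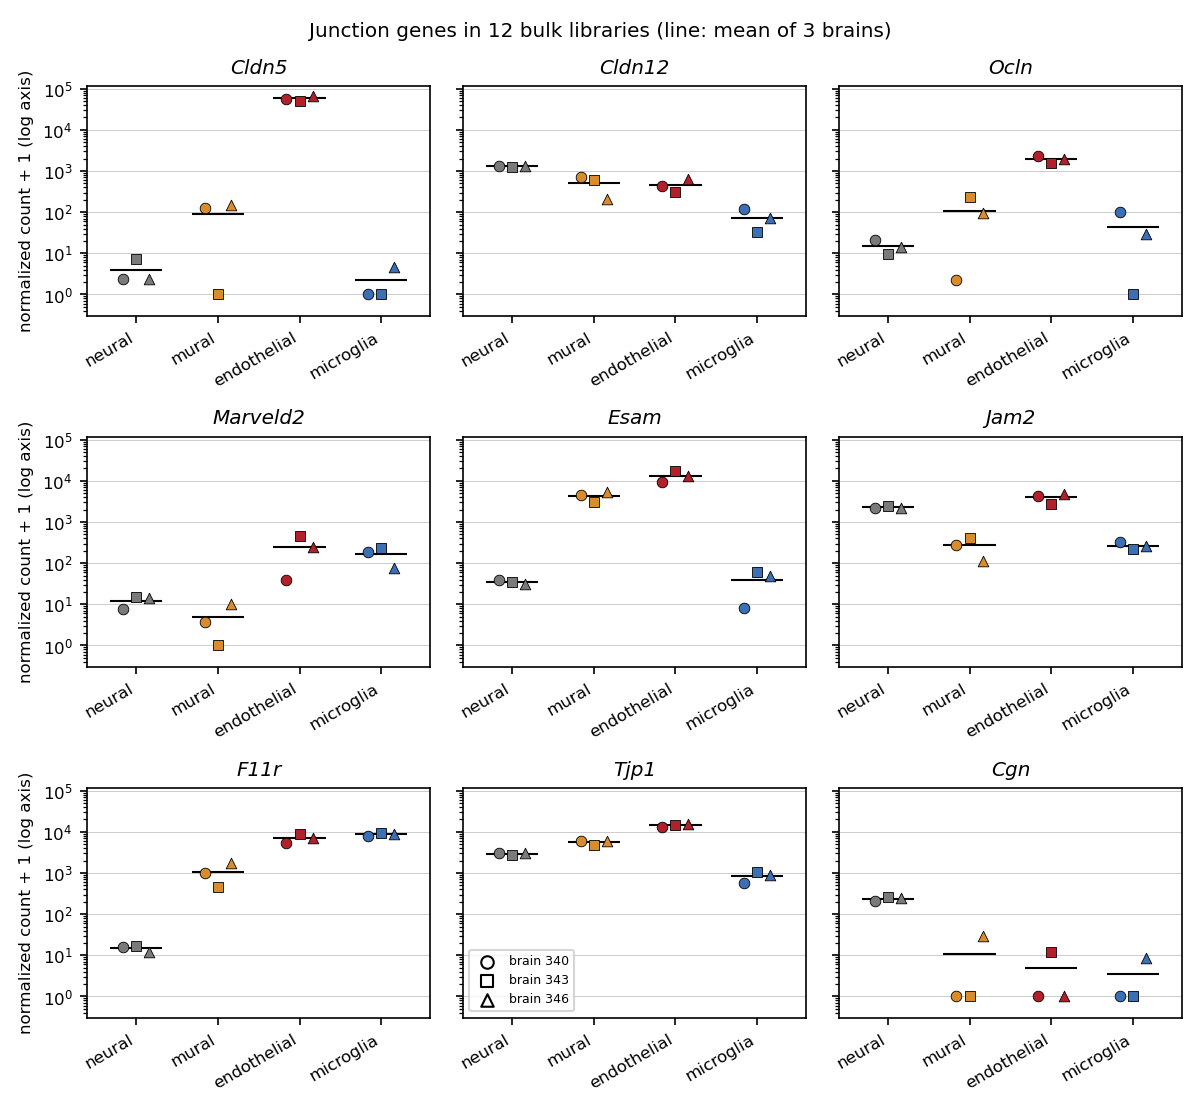
Normalized count + 1 (log axis) of each gene in the 12 bulk libraries, with 1 point per library, the symbol giving the brain and the line the mean of 3 brains; libraries at 0 are drawn at 1. *Cldn5* separates endothelial libraries (51368 to 64664) from all others (at most 146.5), *F11r* is as high in microglia as in endothelial cells, and *Cgn* is high in neural libraries alone.

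Among the claudins, *Cldn5* had the steepest difference of the set. Its normalized counts were 57543, 51368 and 64664 in the libraries Ec-340, Ec-343 and Ec-346. In mural libraries they were 126.3, 0 and 146.5, and in neural and microglial libraries none exceeded 6.09. The endothelial libraries stood far above all others, and the libraries Mu-340 and Mu-346 held most of what little was found elsewhere. The log2 difference from the mean of the other populations was 13.40 ± 1.31 (SE; adjusted p = 2.15e-05, limma). Because neural and microglial libraries and the library Mu-343 rested on 0 to 11 reads each (Mu-340 and Mu-346 on 289 and 156), the size of this difference follows the pseudocount, although its call did not. The mural level was 0.157% of the endothelial level. Mural against neural libraries did not pass the test (log2 difference 2.98 ± 1.61, adjusted p = 0.142), but passed it with a pseudocount of 10 (adjusted p = 0.0405), without the brain of Ec-343 (0.00229), and with edgeR (0.00462) and DESeq2 (9.70e-04) on recovered reads.

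*Cldn12*, the other claudin of the set, was highest in neural libraries. Its normalized counts were 1311, 1274 and 1293 in neural libraries, 702.6, 599.2 and 204.8 in mural, 439.4, 303.8 and 651.5 in endothelial and 115.3, 32.02 and 71.8 in microglial libraries. Mural and endothelial libraries overlapped, and microglial libraries were lowest. The difference of endothelial libraries from the mean of the others did not pass the test (log2 difference 0.41 ± 0.45, adjusted p = 0.491, limma), nor did that from mural and microglial libraries alone (1.38, adjusted p = 0.103). Neural exceeded endothelial libraries by 1.54 ± 0.55 (adjusted p = 0.0322), against 30.6% of all genes called higher in that direction, and endothelial exceeded microglial libraries by 2.76 ± 0.55 (adjusted p = 0.00251). The neural excess over mural libraries (1.55 ± 0.55, adjusted p = 0.0335) was lost under 5 alternatives, among them each brain left out in turn. How the nearly equal excess over endothelial libraries fared under these alternatives is not given here. Kit and neural population cannot be told apart in either comparison.

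The MARVEL genes, which are neighbours, differed in their bulk patterns, and no test compared these genes with each other. *Ocln* was at 2270, 1559 and 1983 in endothelial libraries. It was at 1.31, 228.3 and 92.0 in mural libraries, at 97.5, 0 and 29.0 in microglial and at 20.03, 8.86 and 13.5 in neural libraries. Endothelial libraries lay above all others, and mural and microglial libraries were scattered between 0 and 228.3. The difference from the mean of the others was 6.61 ± 1.46 on the log2 scale (adjusted p = 0.00442, limma). It did not pass without the brain of Ec-346 (6.98, adjusted p = 0.0630). Against mural libraries alone the difference was 5.71 ± 1.79 (adjusted p = 0.0361), and this call was lost with the brain as a block (adjusted p = 0.0585), edgeR (0.0698), a pseudocount of 0.1 (0.0965), no minimum (0.0621) and without the brain of Ec-340 (0.165) or of Ec-346 (0.171).

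*Marveld2*, which encodes the protein of tricellular contacts, was at 37.2, 462.8 and 241.3 in endothelial libraries and at 190.2, 231.2 and 74.3 in microglial libraries, and the groups overlapped. In neural libraries it was at 6.68, 13.8 and 13.2, and in mural libraries at 2.62, 0 and 9.39. The difference of endothelial libraries from the mean of the others was 3.17 ± 0.87 (adjusted p = 0.0137, limma), but the difference from microglial libraries did not pass (0.12 ± 1.07, adjusted p = 0.962). The first call was lost without the brain of Ec-343 (2.29, adjusted p = 0.114), without the brain of Ec-346 (3.04, 0.0840) and against mural and microglial libraries alone (2.86, 0.0702). The summed choroid plexus and epithelial markers were 276.4, 633.1 and 117.6 in the endothelial libraries, with *Ttr* at 0 to 40.7, and 102.0 to 147.4 in the microglial libraries, and their part in the *Marveld2* level was not tested.

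Each of the adhesion molecules was shared with a different second population. *Esam*, an endothelial adhesion molecule also known from platelets, was at 9359, 16953 and 12980 in endothelial libraries and at 4459, 3017 and 5404 in mural libraries. Neural and microglial libraries stayed between 7.13 and 59.3. Endothelial and mural libraries did not overlap, but their difference did not pass the test (1.61 ± 0.63, adjusted p = 0.0804, limma). It passed with edgeR (adjusted p = 0.0335), DESeq2 (0.0127), a pseudocount of 10 (0.0245) and without the brain of Ec-340 (0.0161). Against the mean of the other populations *Esam* was 6.31 ± 0.51 higher (adjusted p = 5.83e-06). The mural mean of *Esam* was 32.8% of its endothelial mean, where *Cldn5* was at 0.157%, *Pecam1* at 0.252% and *Cdh5* at 0.236%. Other endothelial markers were higher in mural libraries, *Tek* at 19.99% and *Emcn* at 101.5%.

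*Jam2*, a junctional adhesion molecule of endothelial and neural cells, was at 4309, 2798 and 4795 in endothelial libraries and at 2185, 2382 and 2234 in neural libraries. Mural libraries held 280.1, 415.5 and 109.0, and microglial libraries 317.4, 219.4 and 253.0. The endothelial libraries lay above the neural libraries without overlap, but the difference of 0.77 ± 0.42 did not pass the test (adjusted p = 0.134, limma). Neural exceeded mural libraries by 3.27 ± 0.42 (adjusted p = 6.42e-05, against 28.7% of all genes called higher in that direction). Against the mean of the others, endothelial libraries were 2.90 ± 0.34 higher (adjusted p = 7.26e-05).

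*F11r*, which encodes JAM-A, a molecule of endothelia, epithelia, leukocytes and platelets, was at 5420, 8907 and 7060 in endothelial libraries and at 7939, 9203 and 8806 in microglial libraries. Mural libraries held 984.0, 458.8 and 1740, and neural libraries 11.4 to 16.1. Microglial and endothelial libraries overlapped (difference 0.31 ± 0.40, adjusted p = 0.612, limma), and both stood above mural and neural libraries. Endothelial exceeded mural libraries by 2.92 ± 0.40 (adjusted p = 3.18e-04), and mural exceeded neural libraries by 5.95 ± 0.40 (adjusted p = 5.60e-07). Against the mean of the others the endothelial difference was 3.83 ± 0.33 (adjusted p = 8.14e-06), and 1.31 (0.0262) without the neural libraries, where *F11r* was lowest. The microglial libraries held 3 reads of *Cldn5* in all and *Pecam1* at 3.79% of the endothelial level, where *F11r* was at 121.3%. Of 7 megakaryocyte and platelet markers, summed levels were 712.6 to 1281 in microglial and 223.3 to 523.3 in endothelial libraries. The means of 5 of the 7 markers were higher in microglial than in endothelial libraries, *Pf4* at 715.7 against 36.5, *Gp9* at 42.9 against 8.31, *Gp1ba* at 25.2 against 18.1, *Ppbp* at 10.3 against 6.03 and *Gp6* at 2.40 against 0. The means of *Itga2b* (197.8 against 297.8) and *Gp1bb* (1.98 against 24.1) were lower. The part of these markers in the *F11r* level was not tested.

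**Figure D2:**
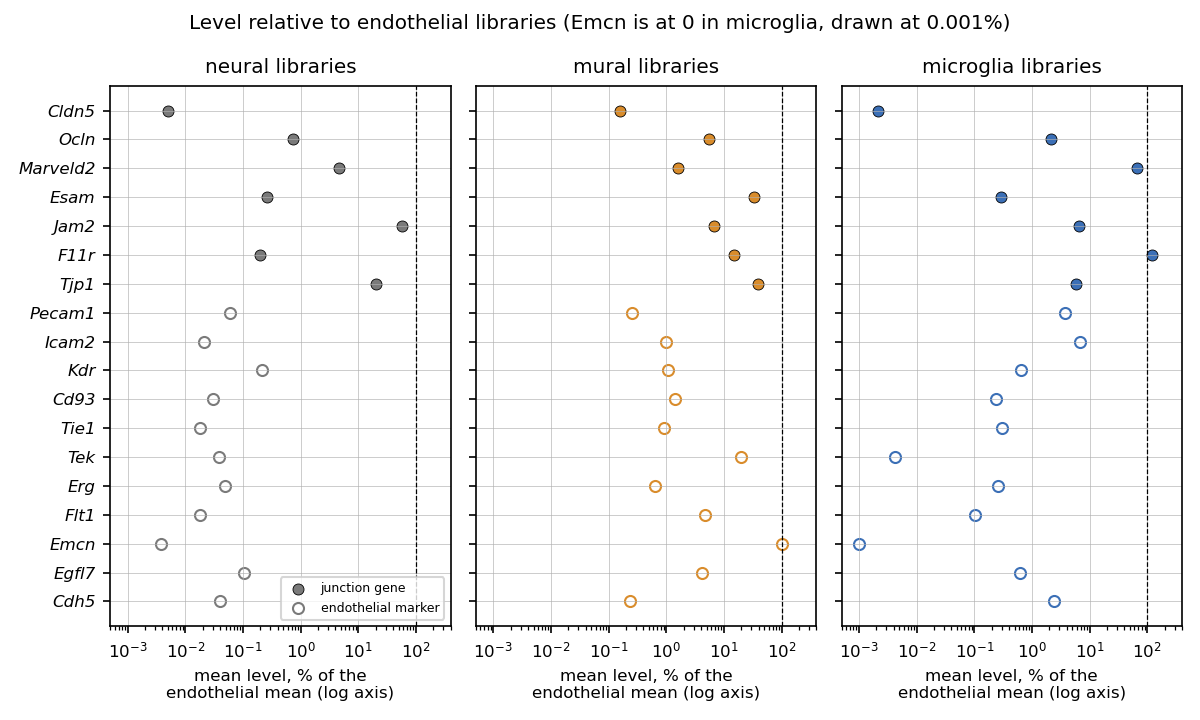
Mean level in neural, mural and microglial bulk libraries as a percentage of the endothelial mean (log axis; dashed line at 100%), for the 7 genes called higher in endothelial libraries (filled) and for endothelial markers (open), with *Emcn* at 0 in microglia. In mural libraries *Esam* (32.8%) and *Tjp1* (38.8%) lie to the right of most markers, and in microglia *F11r* lies at 121.3% with *Marveld2* at 66.9%.

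Of the plaque proteins, *Tjp1*, the scaffold that binds claudins and occludin, was graded over all populations. It was at 13320, 15017 and 15105 in endothelial, 6077, 4804 and 5990 in mural, 3010, 2701 and 3057 in neural and 557.5, 1064 and 906.4 in microglial libraries. No neighbouring groups overlapped, and *Tjp1* was the only one of the 9 genes for which all 6 pairs of populations passed the test. The steps were 1.37 ± 0.21 (endothelial over mural, adjusted p = 6.56e-04, limma), 0.94 ± 0.21 (mural over neural, 0.00295) and 1.84 ± 0.21 (neural over microglial, 2.23e-05). The second step was lost without the brain of Ec-346 (adjusted p = 0.0577). 

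*Cgn*, whose product cingulin is a plaque protein of epithelial junctions, was found in neural libraries. It was at 207.0, 259.2 and 247.8 there and at 0 in 6 of the other 9 libraries. The exceptions were 1 mural library (29.1, 31 reads), 1 endothelial library (11.4, 8 reads) and 1 microglial library (7.55, 6 reads). Neural exceeded mural libraries by 6.26 ± 1.47 (adjusted p = 0.00402, limma), endothelial by 6.69 (0.00255) and microglial libraries by 6.86 (0.00200), sizes that follow the pseudocount. The call against mural libraries was lost with edgeR (adjusted p = 0.0879), DESeq2 (0.108) and without the brain of Ec-340 (0.0684). The endothelial difference from the mean of the others did not pass (-2.31 ± 1.20, adjusted p = 0.144), and was -3.94 without the brain of Ec-343 and -0.81 without the brain of Ec-346 (adjusted p = 0.0797 and 0.555). The choroid plexus and epithelial markers summed to 105.2 to 124.2 in the neural libraries, with *Ttr* at 6.09 to 16.02 and *Epcam* at 17.7 to 24.0. Their part in the *Cgn* level was not tested.

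Levels of different genes were compared per kilobase of merged exon. In endothelial libraries *Cldn5* led with a mean normalized count per kilobase of 40860 ± 4699 (SD, n = 3), followed by *Esam* at 4568 ± 1325, *F11r* at 2677 ± 655 and *Tjp1* at 1854 ± 129. *Jam2* (656 ± 172) and *Ocln* (459 ± 84.8) came next, and *Cldn12* (110.0 ± 41.5), *Marveld2* (73.1 ± 62.9) and *Cgn* (0.629 ± 1.09) were lowest. In mural libraries the order was headed by *Esam* (1498 ± 419) and *Tjp1* (720.0 ± 91.0), in microglial libraries by *F11r* (3248 ± 243), and in neural libraries by *Jam2* (375 ± 17.0), *Tjp1* (374 ± 24.7) and *Cldn12* (306 ± 4.46). These values correct for length alone, and no test was made between genes.

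The profiles over the 12 libraries were compared by Pearson's r of log2(normalized count + 1), as a description over libraries that share 4 populations. The gene most like *Cldn5* was *Adgrl4*, an adhesion receptor of endothelial cells (r = 0.99), followed by *Syt15* and *Gm44101*. Most like *F11r* were *Slco2b1* (r = 0.998), *Tgfbr2* and *Tmed3* (0.99), and most like *Tjp1* were *Mapk12* (0.99), *4933415A04Rik* and *Hecw2*. *Esam* was closest to *Vangl1*, *Ctnna1* (alpha-catenin, of adherens junctions) and *Gm49266*, with r between 0.98 and 0.99. *Ocln* was closest to *Gm8174*, *D430040D24Rik* and *Dock5* (0.90 to 0.93), *Marveld2* to *Ddx27*, *Smarcd2* and *Orai1* (0.95 to 0.97) and *Jam2* to *Acr*, *Fndc1* and *Rph3al* (0.96). *Cldn12* was closest to *Gli3*, *Epha7* and *4930402H24Rik* (0.96) and *Cgn* to *Gm29260*, *Pla2g4b* and *Unc5c* (0.97 to 0.99). No member was among the 3 closest of another. The closest pair within the set was *Tjp1* and *Esam* (0.89).

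In wild-type single cells, 5 of the 9 genes (*Cldn5*, *Esam*, *F11r*, *Jam2* and *Tjp1*) passed edgeR's filter on low counts and all 5 were called higher in the endothelial gate than in the mean of the other gates, where 16.4% of the 9281 genes tested were called higher. A difference over 10-fold was reached by *Cldn5* and *Esam*, against 3.02% of all genes. A gene low everywhere except in endothelial wells could pass that filter through those wells alone, so this count is a description of the 5. Log2 differences were 8.58 for *Cldn5* (adjusted p = 3.55e-27), 4.47 for *Esam* (3.51e-22), 3.01 for *Jam2* (7.65e-11), 2.29 for *Tjp1* (7.15e-13) and 1.76 for *F11r* (4.68e-07). The test compared sums per plate and gate, with 3 plates per gate. The labels do not say whether plates held different brains, so these p-values measure the spread between plates. Without the filter, *Ocln* (5.22, adjusted p = 2.02e-14) and *Marveld2* (2.70, 8.25e-04) were called as well, and *Cldn12* and *Cgn* were not. With DESeq2 *Ocln* passed (adjusted p = 0.00249), and *Marveld2* got no adjusted p.

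*Cldn5* was at 1618, 1316 and 414 CPM in the endothelial gate of plates 1, 2 and 3, and at 0 to 10.9 CPM in the other gates. Plate 3 was lowest and rested on 13 wells. At least 1 *Cldn5* transcript was found in 86.7% of endothelial wells (195 of 225, 95% exact binomial interval 81.5 to 90.8%) and, after thinning each well to 1500 transcripts, in 74.7%. In the other gates 1.43% (mural) to 3.25% (neural) of wells had a transcript at equal or greater median depth (6885 to 10761 transcripts a well against 6408), which is 3 or 4 transcripts a gate. Intervals cover counting error only. On plate 3, 6 of 13 endothelial wells held *Cldn5*. Endothelial wells held a median of 9.01 *Cldn5* transcripts (quartiles 2 and 15.03), with at most 61.5, and a median of 4 of the 9 genes was detected per well, with 77 of 225 wells holding 5 and 6 wells holding none.

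*Esam* was at 447, 431 and 299 CPM in the endothelial gate, at 193, 174 and 179 in the mural gate, and at 1.55 to 19.7 in the neural and microglia gates. Endothelial plates lay above mural plates in all 3, and mural above the other gates. The endothelial excess over mural wells was 1.35 on the log2 scale (edgeR, adjusted p = 2.73e-05, against 11.5% of all genes lower in mural wells) and was not called without plate 1 (adjusted p = 0.0958) or without plate 2 (0.0645). *Esam* was found in 77.8% of endothelial and 57.1% of mural wells, against 6.50% of neural and 4.69% of microglia wells. In the mural gate 282 *Esam* transcripts stood beside 3 of *Cldn5*, where the endothelial gate had 725 and 2419. The 10 endothelial markers summed to 299 CPM in the mural gate and to 6224 CPM in the endothelial gate. Their part in the mural *Esam* level was not tested.

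*F11r* was at 475, 599 and 690 CPM in the microglia gate and at 379.6, 342.7 and 199 in the endothelial gate of plates 1, 2 and 3. Mural plates ranged from 27.5 to 72.1 and neural plates from 9.47 to 76.6. Microglia lay above endothelial wells on every plate, by 0.90 on the log2 scale (edgeR, adjusted p = 0.0228, against 17.5% of all genes called in that direction), but the call was lost with DESeq2 (adjusted p = 0.202), without the filter (0.0723), without plate 1 (0.147) and without plate 2 (0.139). It was found in 85.2% of microglia wells (95% interval 77.8 to 90.8%) and in 79.1% of endothelial wells (73.2 to 84.2%). Thinned to 1500 transcripts, the shares were 50.8% and 41.8%. Those microglia wells held 742 *F11r* and 4 *Cldn5* transcripts. Their megakaryocyte and platelet markers summed to 13.1 CPM, with 4 of 7 detected, and to 16.2 CPM in endothelial wells.

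*Tjp1* was at 344, 330 and 143 CPM in the endothelial gate, at 190, 226 and 247 in the mural gate, at 28.8 to 45.0 in neural and 0 to 38.5 in microglia wells. Endothelial exceeded mural plates on plates 1 and 2 but not on plate 3, and the difference of 0.66 did not pass the test (edgeR, adjusted p = 0.0693). It passed without plate 3 (0.77, adjusted p = 0.00195), with plate as a block (0.68, 0.0205) and with sums per library (0.60, 0.0273). *Jam2* was at 87.6, 94.3 and 0 CPM in the endothelial gate and at 26.6, 40.2 and 43.8 in the neural gate. Plate 3 of the endothelial gate held no *Jam2* in 13 wells, where 3 transcripts would have been 42.7 CPM. The endothelial excess of 1.37 (edgeR, adjusted p = 0.00393, against 18.3% of all genes in that direction) was not called with DESeq2 (0.94, 0.576), without plate 1 (0.446) or without plate 2 (0.362).

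*Ocln* gave 54 transcripts in the endothelial gate, 3 in the mural, 1 in the microglia and 0 in the neural gate, and it was found in 20.4% of endothelial wells against at most 1.43% elsewhere. *Marveld2* gave 22, 2, 6 and 1 transcripts, or 13.2 CPM in endothelial against 4.38 CPM in microglia wells. *Cldn12* was between 3.65 and 11.4 CPM and *Cgn* between 2.40 and 7.25 CPM in all 4 gates, with at most 16 and 7 transcripts a gate, and neither passed the filter. The endothelial gate against the mean of the other gates did not pass with DESeq2 for *Cldn12* (log2 difference 0.09, adjusted p = 0.992) or *Cgn* (-1.003, 0.836), and pairs of gates were not tested for them. In the neural gate, *Cgn* was found in 5 of 123 wells (4.07%, 95% interval 1.33 to 9.23%).

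**Figure D3:**
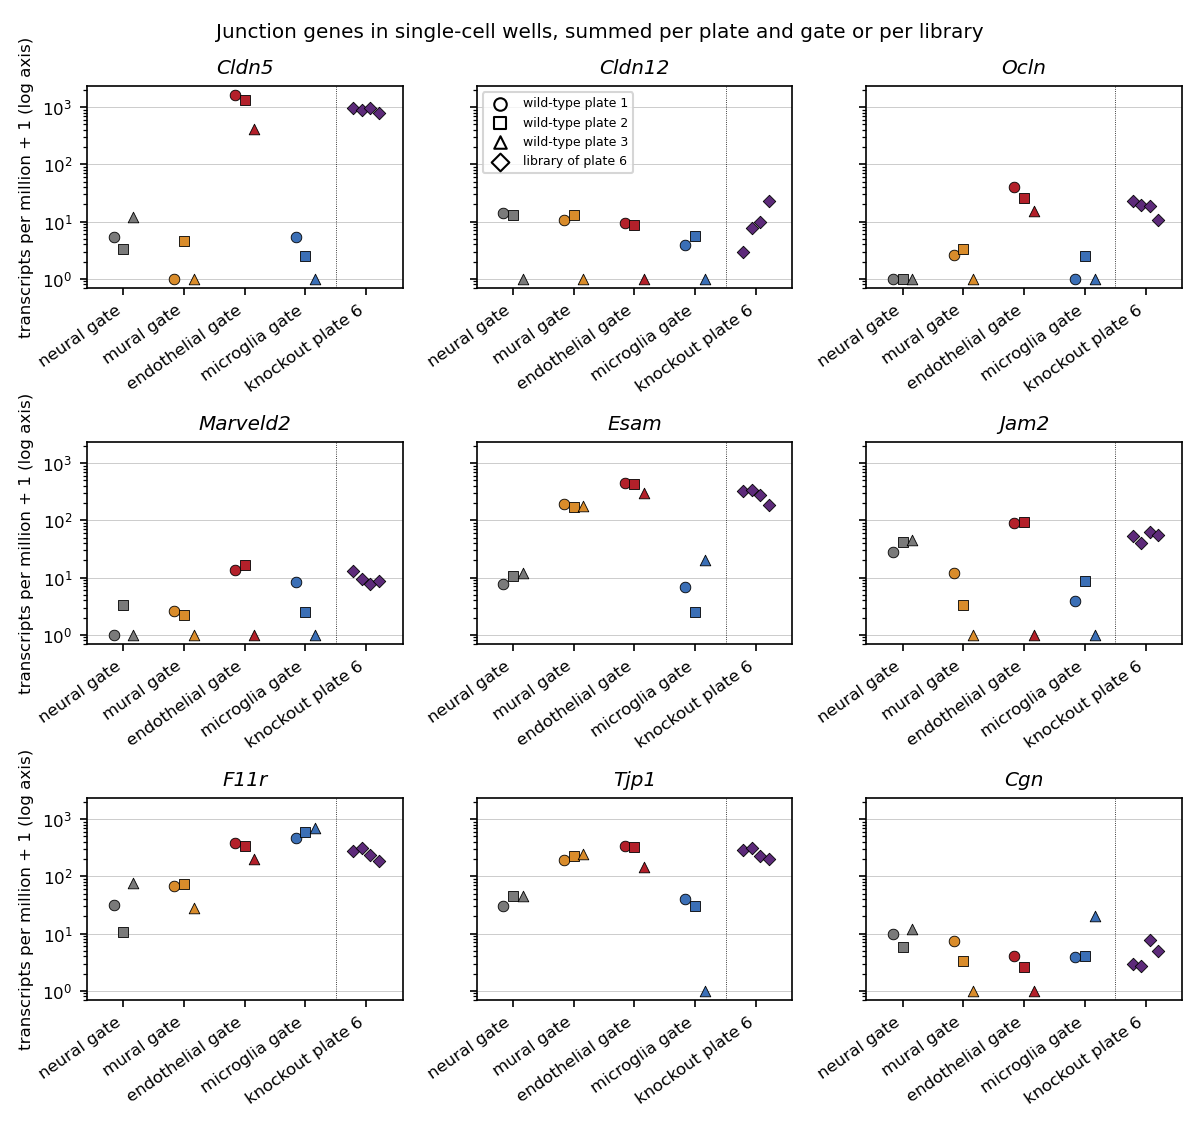
CPM + 1 (log axis) of each gene, summed over wells of a sort gate on wild-type plates 1 to 3 or over a library of knockout plate 6 (1 point per plate or library; sums at 0 are drawn at 1). *Cldn5* is high in the endothelial gate and in all 4 libraries of plate 6 (798 to 971), and *F11r* in microglia wells lies above endothelial wells on each plate.

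Plate 6 of the knockout brains, with 350 wells kept, resembled the endothelial gate in its markers. The 10 endothelial markers summed to 4800 CPM there against 6224 in the wild-type gate, all 10 detected, whereas mural markers were at 418 and 456, neural markers at 687 and 224 and microglial markers at 37.6 and 194. Plates 4 and 5 held *Cldn5* at 5.29 and 1.73 CPM. No test was made between plate 6 and the gate, because 1 plate without gates was set beside 3 plates with them, and genotype, plate and sort cannot be told apart. Median depth was 5414 transcripts a well on plate 6 and 6408 in the gate.

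On plate 6, *Cldn5* was at 902 CPM over the plate, with its 4 libraries between 798 and 971, below plates 1 and 2 of the gate (1618 and 1316) and above plate 3 (414). *Esam* was at 282 (libraries 188 to 336), *Tjp1* at 260.0 (199 to 312) and *F11r* at 256 (186 to 318), against 435, 330.2 and 358 in the gate. *Jam2* was at 51.2 (39.5 to 61.6) against 86.4, *Ocln* at 17.1 (9.76 to 22.0) against 32.4 and *Marveld2* at 8.78 (6.60 to 11.98) against 13.2. These 7 genes were at 52.7% (*Ocln*) to 78.7% (*Tjp1*) of the gate's level, with *Cldn5* at 62.1%, beside 77.1% for the endothelial markers. Per 1000 marker transcripts, *Cldn5* was at 188 on plate 6 and 233 in the gate, *Tjp1* at 54.2 and 53.1, *Esam* at 58.9 and 69.9, *F11r* at 53.3 and 57.5, *Jam2* at 10.7 and 13.9, *Ocln* at 3.56 and 5.21 and *Marveld2* at 1.83 and 2.12. A *Cldn5* transcript was found in 74.6% of plate 6 wells (thinned, 55.1%), and a median of 3 of the 9 genes was detected per well. *Cldn12* (9.76 CPM) and *Cgn* (3.41 CPM) were at the low levels of the gate.

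Other junction genes were read from 4 lists in the bulk libraries. Of 34 other claudins, 32 were in the table but only 9 reached the mean normalized count of 10 needed for a test. *Cldn7* (mean 60.8 ± 21.8 in endothelial libraries, SD, n = 3) and *Cldn19* (120.2 ± 56.4) were called higher, by 3.49 (adjusted p = 0.00731, limma) and 3.37 (0.00688). *Cldn7* was at means of 0.616 in neural, 20.3 in mural and 8.77 in microglial libraries and reached that minimum through the endothelial libraries, so its call is a description. Neither *Cldn7* (adjusted p = 0.101) nor *Cldn19* (0.0664) was called without the brain of Ec-340. *Cldn7* also lost its call against mural and microglial libraries alone. *Cldn3*, a claudin of epithelia, was called lower: it was at 0 in all 3 endothelial and all 3 microglial libraries and at a mean of 36.6 in neural and 51.3 in mural libraries. That call was lost with edgeR (-5.84, adjusted p = 0.9998). The endothelial mean of *Cldn5* was 57858 ± 6654. Over 9 tested claudins the median difference was 0.71, and 19.7% of all genes were called higher.

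Of 13 tested junctional membrane proteins, 3 were called higher and 2 lower (median 0.08), near the shares of all genes (19.7% and 22.4%). *Igsf5*, reached the minimum through endothelial libraries alone, so this count is a description. *Igsf5*, a junctional adhesion molecule of the immunoglobulin type, was at 287.1, 343.5 and 589.7 in endothelial libraries and had no read in the other 9 libraries, so it was at least 147-fold higher, with the floor set at 3 reads per library. *Vsig2* was 6.73 ± 0.47 higher (adjusted p = 1.89e-06, limma), at 957.6 ± 96.9 in endothelial libraries and 84.3 ± 30.9 in mural libraries. *Lsr*, which encodes angulin-1 of tricellular junctions, was 5.75 ± 0.59 higher (adjusted p = 3.12e-05), at 3494 ± 2110. *Crb3*, an epithelial polarity protein, was at 0 in endothelial libraries and at a mean of 37.9 in mural libraries, and *Clmp* was at 77.6 in endothelial, 2414 in neural, 28.7 in mural and 66.4 in microglial libraries. Both were called lower (adjusted p = 0.0243 and 0.0397), but each call was lost under at least 5 of 11 alternatives. Against mural and microglial libraries alone *Clmp* turned to 0.48 (adjusted p = 0.667), and *Crb3* did not pass (-3.55, 0.0685).

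Of 31 plaque and polarity genes, 14 were called higher, 3 lower and 14 neither (median 0.39), where 19.7% of all genes were higher and 22.4% lower, with a median of -0.12. The steepest was *Cgnl1*, the paracingulin gene and the closest relative of *Cgn*, at 9336 ± 941 in endothelial, 2654 ± 552 in mural, 24.7 ± 3.02 in neural and 1.19 ± 2.06 in microglial libraries (7.60 ± 0.44 higher, adjusted p = 4.72e-07, limma). The neural library means of *Cgn* and *Cgnl1* were 238.0 and 24.7, and the endothelial means 3.79 and 9336. *Jcad* (5.72), *Tiam1* (4.86), *Afdn* (3.21) and *Heg1* (3.18) followed. *Afdn* was at 8944 ± 428 in endothelial and 8736 ± 766 in neural libraries, with 555.6 in mural and 187.5 in microglial libraries. *Heg1* was not called without the brain of Ec-340 (adjusted p = 0.140) or of Ec-346 (0.101), with a pseudocount of 0.1 or with no minimum (0.0532 each). *Magi2* and *Arhgef11* were called lower (-3.76 and -0.82), as was *Pard6b*, at a mean of 450.6 in neural and 0.591 in endothelial libraries. All 3 were highest in neural libraries, and against mural and microglial libraries alone none was called (adjusted p = 0.176, 0.468 and 0.0920), with *Arhgef11* at 0.36.

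Of 11 adherens junction genes, 8 were called higher and 2 lower (median 1.71), against 19.7% and 22.4% of all genes. *Cdh5*, the VE-cadherin gene, was 8.65 ± 0.82 higher (adjusted p = 1.71e-05, limma), followed by *Nectin1* (2.99), *Cdh2* (2.61), *Nectin2* (2.09) and *Ctnna1* (1.79). *Nectin1* was at a mean of 348.8 in endothelial and 1914 in neural libraries, and *Cdh2* at 9838 and 9856, while both were lower in mural and microglial libraries. *Cdh1*, the epithelial E-cadherin gene, was called lower and was at 0 in all endothelial libraries, and *Ctnna2* was at 116.9 there against 6710 in neural libraries. Without the neural libraries *Ctnna2* was not called (-3.04, adjusted p = 0.192), nor was it without the brain of Ec-340 or of Ec-343.

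**Figure D4:**
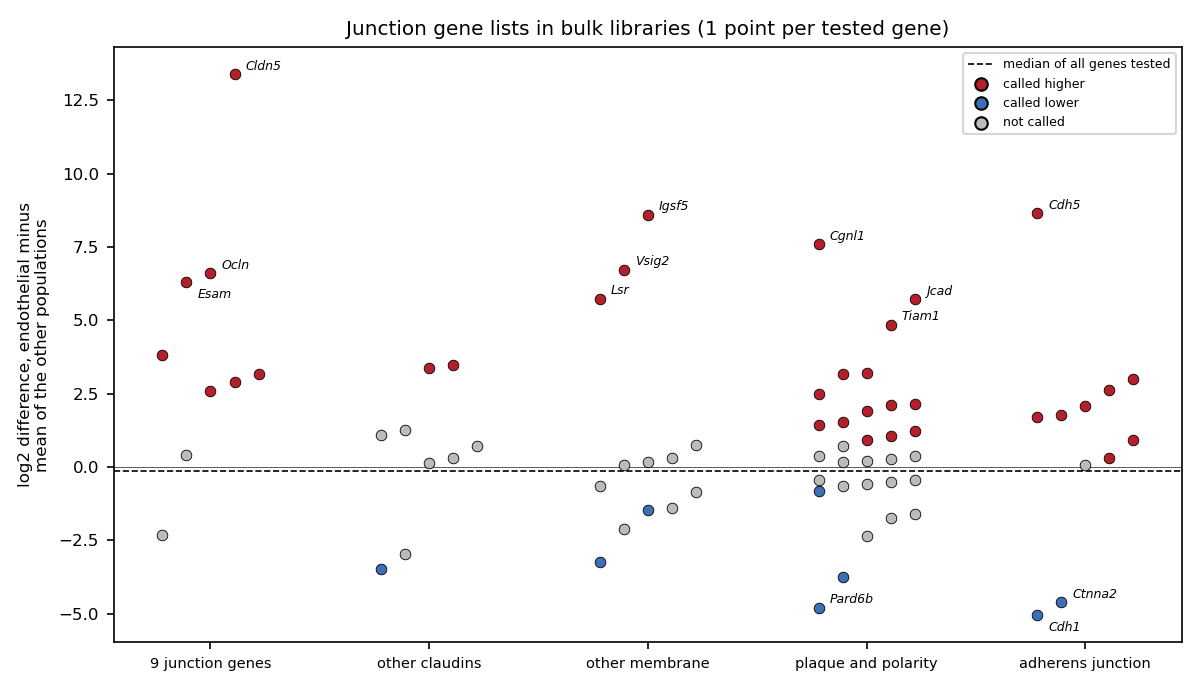
Log2 difference of endothelial libraries from the mean of the other bulk populations, 1 point per tested gene in the 9 junction genes and 4 further lists, with called genes in red (higher) or blue (lower) and the median of all genes (-0.12) dashed. *Cldn5* (13.40) lies above every other point, followed by *Cdh5* and *Igsf5*.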

How the data were processed

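Expression was measured in 12 bulk RNA-seq libraries and in single-cell libraries from 3 wild-type and 3 *Mof* knockout plates. The bulk table that the authors deposited holds normalized counts, read here as a linear signal. Each value was a whole number of reads times 1 factor per library (100% of low values within 0.01), so reads were recovered. On them edgeR called 4065 genes higher and 2483 lower in endothelial libraries, and limma 3892 and 4430 on the normalized values. For single cells the authors deposited expected counts of transcripts, corrected for identifiers drawn repeatedly. The submitters' processing notes name mm10, BWA 0.6.2-r126, STAR, featureCounts and DESeq2. Coordinates and exon lengths came from GENCODE for GRCm38, and 53274 of 53465 identifiers had a symbol.

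Bulk values were tested with limma 3.58.1 (trend, no block) in R 4.3.3 on log2(normalized count + 1), for genes with a mean of at least 10. The unit differed from raw counts, so count tools served as alternatives. Wells with more than 1500 transcripts, without 2 spike-in rows, were summed per plate and gate, rounded and tested with edgeR 4.0.16 (TMM). DESeq2 1.42.0 was an alternative. All tests were two-sided with Benjamini-Hochberg adjustment. Standard errors are those of limma. Shares carry exact (Clopper-Pearson) 95% intervals, and a group at 0 was given a floor of 3 counts. Each well was sorted for 1 cell, and no doublet caller was run. The bulk limma and single-cell edgeR fits were also run on simulated counts, whose outcome is not given here. Python 3.11.15, pandas 2.3.3, scipy 1.17.1 and matplotlib 3.10.9 were used.

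Equal numbers in the sample labels stand for 1 brain. Their residual correlations ran from -0.054 to 0.0801. The 9 genes and all lists were chosen with earlier results of these data known. Named in the text were the 9 genes, per list the up to 5 largest called rises and 3 largest called falls, and per gene the 3 most alike profiles. The genes used as markers were named outside that rule, after their values were seen. So were the pairs of single-cell gates.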

Additional observations from a re-analysis of the deposited data

Results flagged for a closer look

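A gate of PDGFRB medium or low wells, outside the 4 populations, held 23 kept wells on wild-type plates 1 and 2. It gave 15 transcripts of *Jam2*, 8 each of *F11r* and *Tjp1*, 7 of *Cldn12* and 5 of *Esam*, all above the 3 counts that a count of 0 allows. *Cldn5*, *Ocln* and *Marveld2* gave 0 transcripts and *Cgn* gave 2. Neural markers summed to 8147 CPM, mural markers to 3114 CPM and endothelial markers to 85.3 CPM in these wells. None of the 9 genes had a library of plate 6 that stood apart from the other 3 by Dixon's test, which chance would flag in about 1 of 20 groups.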

How the results depend on the processing

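The count of 7 genes higher in endothelial libraries was 7 under pseudocounts of 0.1 and 10, no minimum, quantile normalization, the replicate block for the brain, edgeR and DESeq2. It was 6 against mural and microglial libraries alone and 5 to 7 with a brain left out. With a 10-fold threshold it was 4, and in single cells 2 in place of 5. The single-cell count was 5 to 6 with a plate left out, 5 with plate as a block, 6 with DESeq2 and 7 without the filter. Of the 54 pairs, 30 to 33 passed with a brain left out, 36 with the brain as a block and 34 to 40 otherwise. The block changed no call against the mean of the others. Without the brain of Ec-346 the *Cldn12* difference turned from 0.41 to -0.028 (-0.028 to 0.67 with a brain left out, 1.38 against mural and microglial libraries alone), and without the brain of Ec-343 (-0.32) or of Ec-346 that of *Marveld2* between endothelial and microglial libraries turned negative (-0.66 to 1.34). *Cgn* was called lower at a pseudocount of 10 (-1.49, adjusted p = 0.0193). Of 23 named genes of the other junction lists, 12 were called under all 11 alternatives, which were applied to them after seeing the data, and 11 lost their call under at least 1. *Clmp* (0.48) and *Arhgef11* (0.36) turned positive against mural and microglial libraries alone. The plaque genes called higher were 10 to 15 in place of 14, and the claudins 0 to 2 in place of 2. *Nectin2* lost its call without the brain of Ec-346 (adjusted p = 0.0514). The cause of these changes was not tested. At the depth of the single cells, *Cldn12*, *Cgn* and *Marveld2* rested on at most 22 transcripts a gate.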
